A study of Mus musculus with 69 samples.

Results

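The genotype-by-myelin interaction of male microglia is the difference between the myelin response of Tlr7 knockout (KO) cells and the myelin response of wild-type (WT) cells, and it asks which responses to myelin differ when Tlr7 is missing. It rests on 12 of the 69 libraries of the series, chosen by the sex, genotype and treatment in their labels. There are 3 libraries each of male KO microglia given myelin, male KO microglia given DMSO, male WT microglia given myelin and male WT microglia given DMSO. All were primary microglia of mouse pups at postnatal days 1 to 3, and the KO genotype is labelled TLR7:-/-. The 12 female libraries of the same 4 kinds entered the same fit and serve for comparison. The labels give neither the amount of myelin nor the time in culture, and they do not say whether the 3 libraries of a group came from separate cultures or animals, and the p-values therefore reflect library-to-library spread, which may be technical.

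Tlr7 encodes an endosomal receptor for single-stranded RNA that signals through MyD88 to NF-kB, the MAP kinases and IRF7, the last of which drives type I interferon. Microglia, the macrophages of the brain, take up myelin debris, break it down in lysosomes and pass its cholesterol to the LXR receptors, while SREBP-driven sterol synthesis is shut down. Cells loaded with lipid in this way take on genes known from disease-associated microglia, such as Gpnmb, Cst7, Clec7a and Itgax.

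Expression was measured by sequencing tags from the 3' ends of mRNA, and the authors' deposited gene counts summed to between 15277642 and 21275491 per male library. Levels are given as CPM, the counts scaled to a fixed library size with TMM factors, and responses as log2 ratios of myelin over DMSO. The interaction is the KO response minus the WT response on the log2 scale, so that a negative value means a lower response in KO than in WT. Each log2 value is given with a standard error (SE) derived from the test, its absolute size over the square root of the F statistic. A gene was called at an adjusted p under 0.05 from edgeR's quasi-likelihood test with Benjamini-Hochberg adjustment over 14468 genes. The labels give the molecule as nuclear RNA. Since the RNA of a library was not separated by cell, fewer cells of a type and less RNA per cell cannot be told apart.

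Tlr7 itself, on chromosome X (GRCm38 chrX:167304929-167330558), had 1.71, 1.25 and 1.77 CPM in KO myelin libraries and 1.42, 2.32 and 2.3 CPM in KO DMSO libraries, against 177, 176 and 174 CPM in WT myelin libraries and 182, 193 and 184 CPM in WT DMSO libraries. The labels and the targeted gene thus matched in each of the 12 libraries. Myelin did not move it detectably in either genotype, with a response of -0.35 ± 0.18 in KO and -0.09 ± 0.05 in WT (log2, SE, adjusted p = 0.20 and 0.14).

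All 12 microglia-defining genes, among them Csf1r, Trem2 and Tyrobp, were detected, and their summed level was 4863 to 4945 CPM in KO myelin and 5827 to 6013 CPM in KO DMSO, against 4618 to 4721 CPM in WT myelin and 5827 to 6029 CPM in WT DMSO libraries. Some libraries and groups stood apart in other ways. KO DMSO replicate 3 had the highest levels of interferon-stimulated genes in its group, and the results on interferon and class I genes are given with and without it. Ttr, the defining gene of choroid plexus epithelium, had 3.78 to 20.3 CPM in male KO libraries and 122 to 211 CPM in male WT libraries. Xist had 0.929 to 1.96 CPM in male KO libraries and at most 0.125 CPM in male WT libraries. Astrocyte markers summed to 1548 to 1661 CPM in KO myelin and 1218 to 1264 CPM in KO DMSO, against 1139 to 1195 CPM in WT myelin and 852 to 997 CPM in WT DMSO. Of the 14 astrocyte genes tested, 3 were higher and 3 lower with myelin in KO, and 2 were higher and 3 lower in WT. Of the 17 oligodendrocyte and myelin genes tested, 3 were higher and 7 lower with myelin in KO, and 3 were higher and 2 lower in WT. Over all tested genes, 38.2% were called with myelin in KO and 39.3% in WT, in either direction. The sum over all 20 genes of the oligodendrocyte and myelin list was 666 to 736 CPM in KO myelin and 319.7 to 353 CPM in KO DMSO. It was 685 to 780.3 CPM in WT myelin and 353 to 395 CPM in WT DMSO libraries. Of that list, Mbp averaged 398 CPM in KO myelin and 117 CPM in KO DMSO, against 385 and 111 CPM in WT. Mobp averaged 118 CPM in KO myelin and 2.08 CPM in KO DMSO, against 112 and 3.28 CPM in WT. In the male interaction no member of the oligodendrocyte, precursor, astrocyte, neuron, endothelial, fibroblast, choroid plexus or peripheral immune lists was called. Of the 12 microglia-defining genes 3 were called higher, Itgam, C1qa and Fcrls. Of 9 border-associated macrophage genes 1 was called higher, Stab1, and 1 lower, Ms4a7 (all tested genes: 0.788% higher and 1.78% lower). Stab1 lost its call without KO myelin replicate 2 (0.18), WT myelin replicate 3 (0.16) or WT DMSO replicate 1 (0.19) or 2 (0.17). The part of other cells in the results below was not tested. A fit with Ttr and Pdgfra, a precursor gene, as covariates called 363 genes, 337 of them among the 371 called without covariates.

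Myelin moved a large share of the transcriptome in both genotypes. In KO cells 5530 of the 14468 genes (38.2%) were called, 2602 higher and 2928 lower, and in WT cells 5691 genes (39.3%), 2887 higher and 2804 lower. The difference between these responses was called for 371 genes, which is 2.56% of those tested. The KO response was the higher in 114 (0.788%) and the lower in 257 (1.78%). This split depends on how libraries are scaled, since it was 148 higher and 218 lower with RLE size factors, 219 and 199 with upper-quartile factors and 220 and 205 with library totals alone, while the median interaction of all genes moved by less than 0.1. It also depends on single libraries: the lower count was 159 without KO myelin replicate 1, 155 without KO DMSO replicate 3 and 142 without WT myelin replicate 1, and the higher count was 73 without WT myelin replicate 3, 75 without WT DMSO replicate 1 and 70 without WT DMSO replicate 2. Without any adjustment 1887 genes had p under 0.05.

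The called differences were mostly modest in size. The median absolute interaction was 0.30 (log2), 68 genes passed 0.5 and 19 passed 1. In 347 of the 371 genes (93.5%), all 9 KO differences between a myelin and a DMSO library lay on the same side of all 9 WT differences. This held for 991 of all tested genes (6.85%). The rule uses the same libraries as the call, so a higher share among called genes follows from the selection. The called genes were abundant, with a median level of 109 CPM against 15.8 CPM for all tested genes. Of the 371, 8 lay on chromosome X, as did 476 of the 14468 tested genes, and 363 were protein coding, as were 12581 of those tested.

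**Figure D1:**
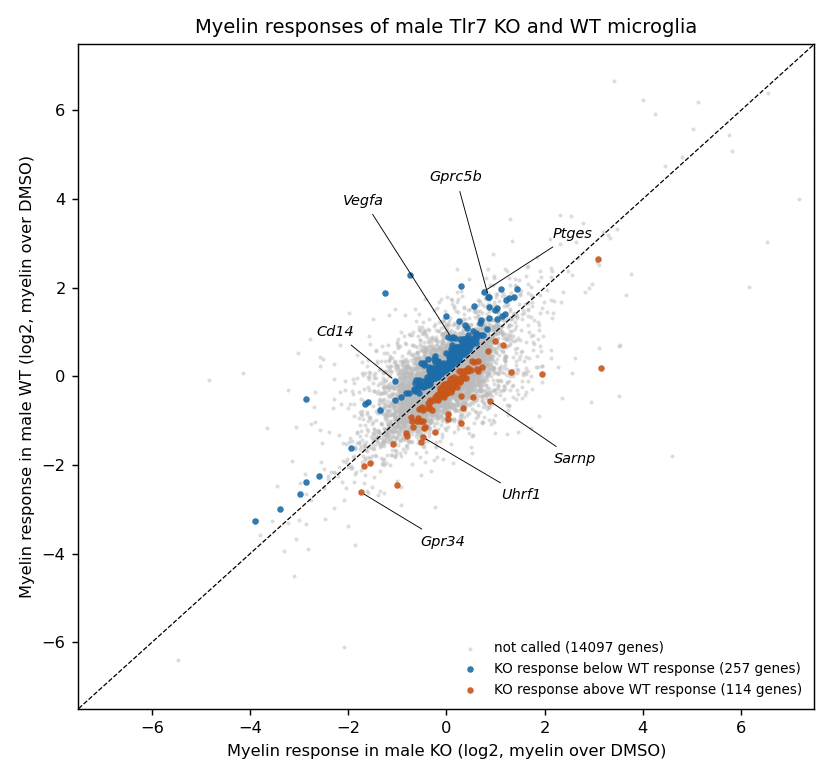
Myelin response in male KO microglia (horizontal) against male WT microglia (vertical), both as log2 of myelin over DMSO, for 14468 genes. The dashed line marks equal responses; the 257 genes with a lower response in KO lie above it and the 114 with a higher response in KO lie below it.

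The interaction took several forms, described here by rule and without a test, since the classes use the same libraries. The myelin response had the same direction and was smaller in KO for 157 of the 371 genes, and it had the same direction and was larger in KO for 45. It was called in WT alone for 90 genes, in KO alone for 57, and in opposite directions for 22. Many of these genes already differed between the genotypes without myelin. KO and WT differed in DMSO alone for 135 genes, in myelin alone for 105 and in both for 129, where 20.9% and 20.6% of all tested genes were called between the genotypes in DMSO and in myelin. Of the 257 genes with a lower response in KO, 175 stood above WT in DMSO, as did 11.6% of all genes, and 106 stood below WT in myelin, as did 10.6% of all genes. The interaction equals the genotype difference in myelin minus that in DMSO. An excess of such genes over the shares of all genes thus follows from the selection.

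Gprc5b (chr7:118972047-118995211), an orphan G protein-coupled receptor, shows the first of these patterns. It had 70.5, 66.9 and 62.5 CPM in KO myelin and 37.9, 37.4 and 34.7 CPM in KO DMSO libraries, against 66.9, 61.3 and 67.1 CPM in WT myelin and 19.1, 18.6 and 18.3 CPM in WT DMSO libraries. The myelin levels of the genotypes overlapped, while each KO DMSO library stood above each WT DMSO library. The response was 0.86 ± 0.06 in KO and 1.80 ± 0.07 in WT, and the interaction was -0.94 ± 0.09 (adjusted p = 8.6e-11). Dusp4, a MAP kinase phosphatase, Ms4a7, a macrophage membrane protein, and Gpnmb, a lipid-associated lysosomal glycoprotein, likewise stood higher in KO DMSO than in WT DMSO, and their interactions were -0.70 ± 0.12, -0.56 ± 0.06 and -0.34 ± 0.04.

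Vegfa (chr17:46016993-46032369), the angiogenic growth factor, shows the other pattern. It had 15.8, 16.3 and 17.3 CPM in KO myelin and 15, 15.2 and 16 CPM in KO DMSO libraries, against 26.2, 27.4 and 27.1 CPM in WT myelin and 15.8, 14.7 and 13.5 CPM in WT DMSO libraries. The 3 WT myelin libraries stood above the other 9, which overlapped. The response was 0.10 ± 0.09 in KO and 0.88 ± 0.09 in WT, giving an interaction of -0.78 ± 0.12 (adjusted p = 2.7e-05). Cyp1b1, a cytochrome P450, had a response of 0.03 ± 0.14 in KO and 0.89 ± 0.13 in WT and an interaction of -0.86 ± 0.20 (adjusted p = 0.0090).

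**Figure D2:**
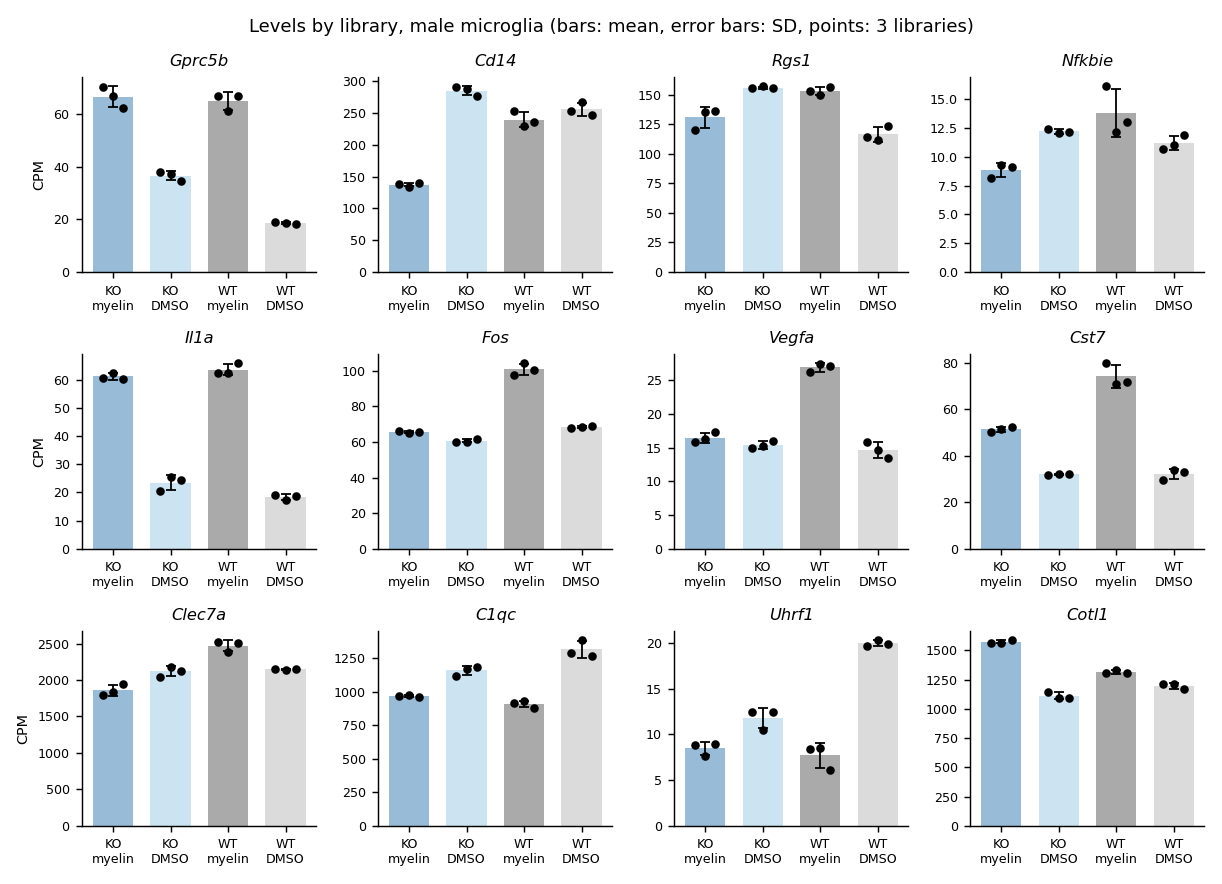
CPM of 12 genes called in the male interaction, in the 3 libraries of KO myelin, KO DMSO, WT myelin and WT DMSO microglia. Bars are means, error bars are SD and points are libraries. In Gprc5b the genotypes differ in DMSO, in Vegfa they differ in myelin, and in Fos they differ in both. In Cd14 KO myelin stands lowest and KO DMSO stands above both WT groups.

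Among the 38 tested genes of the endosomal Toll-like receptor pathway, 4 had a lower response in KO and none a higher one. The shares of all tested genes were 1.78% and 0.788%. Called genes had a median level of 109 CPM against 15.8 CPM for all tested genes. Neither this list nor those below were matched to all genes by level. Cd14, a co-receptor of several Toll-like receptors, had 139, 134 and 139 CPM in KO myelin and 291, 288 and 277 CPM in KO DMSO libraries, against 254, 230.5 and 236 CPM in WT myelin and 253, 268 and 247 CPM in WT DMSO libraries. The KO myelin libraries stood below all the others, each KO DMSO library stood above each WT library, and the WT groups overlapped. Its response was -1.05 ± 0.05 in KO and -0.09 ± 0.05 in WT, and the interaction was -0.96 ± 0.07 (adjusted p = 1.3e-09). Slc15a3, an endolysosomal transporter of histidine and bacterial peptides, rose by less in KO (0.41 ± 0.03, against 0.75 ± 0.03 in WT; interaction -0.34 ± 0.04, adjusted p = 7.3e-08). Ctss, the lysosomal protease cathepsin S, had a response of -0.06 ± 0.03 in KO and 0.17 ± 0.03 in WT (interaction -0.22 ± 0.04, adjusted p = 1.9e-04). The remaining called member, named after its value was seen, was Ctsb, cathepsin B, at -0.16. The adaptors, kinases and interferon regulatory factors of the list were not called, and the median interaction of the list was -0.11, against -0.02 for all tested genes.

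Of 39 tested inflammatory cytokine and NF-kB feedback genes, 11 were called, each with a lower response in KO (all tested genes: 1.78%). The other 28 were not called. The median interaction of the list was -0.29, from a median response of 0.35 in KO and 0.74 in WT. The count was 7 without KO DMSO replicate 3 and 6 without WT myelin replicate 1, with none called higher in either case. Il1a (chr2:129299610-129309972), the cytokine interleukin 1 alpha, had 60.8, 62.6 and 60.3 CPM in KO myelin and 20.5, 25.5 and 24.4 CPM in KO DMSO libraries, against 62.3, 62.6 and 65.9 CPM in WT myelin and 19, 17.3 and 18.8 CPM in WT DMSO libraries. The KO DMSO libraries all stood above the WT DMSO libraries. The response was 1.38 ± 0.06 in KO and 1.79 ± 0.07 in WT, and the interaction was -0.41 ± 0.09 (adjusted p = 0.0054), which became -0.32 (adjusted p = 0.070) without KO DMSO replicate 2.

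Socs3, which inhibits cytokine receptor signalling, averaged 41.5 ± 2.49 CPM in KO myelin and 28.3 ± 0.878 CPM in KO DMSO, against 67.8 ± 3.52 CPM in WT myelin and 33.4 ± 0.385 CPM in WT DMSO (SD, n = 3 each). Its response was 0.55 in KO and 1.02 in WT (interaction -0.47 ± 0.10, adjusted p = 0.0017). Nfkbie (chr17:45555703-45563169), the NF-kB inhibitor IkB epsilon, moved in opposite directions. It had 8.2, 9.28 and 9.14 CPM in KO myelin and 12.4, 12.1 and 12.2 CPM in KO DMSO libraries, against 16.1, 12.2 and 13 CPM in WT myelin and 10.7, 11 and 11.9 CPM in WT DMSO libraries. Every KO myelin library stood below every KO DMSO library, and every WT myelin library stood above every WT DMSO library. The interaction was -0.76 ± 0.15 (adjusted p = 0.0013). Tnf, the central macrophage cytokine, had an interaction of -0.48 ± 0.13 (adjusted p = 0.021), but its call was lost when any of 6 libraries was left out in turn: KO myelin replicate 3 (-0.42), KO DMSO replicate 1 (-0.47) or 3 (-0.39), WT myelin replicate 1 (-0.42), or WT DMSO replicate 1 (-0.48) or 2 (-0.42), with adjusted p between 0.050 and 0.13.

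Of 21 eicosanoid enzyme genes 2 were called, both lower in KO (all tested genes: 1.78%). The median interaction of that list was 0.05. Ptges, the inducible prostaglandin E synthase, had 9.57, 8.45 and 8.75 CPM in KO myelin and 5.33, 4.69 and 5.76 CPM in KO DMSO libraries, against 22.4, 15.2 and 15.9 CPM in WT myelin and 4.53, 5.2 and 4.42 CPM in WT DMSO libraries. The WT myelin libraries stood above all the others, and the DMSO groups overlapped. The interaction was -1.15 ± 0.24 (adjusted p = 0.0029). Slamf7, a receptor of macrophages and lymphocytes, had an interaction of -0.93 ± 0.21 (adjusted p = 0.0062), which was -0.74 (adjusted p = 0.061) without WT myelin replicate 1. Rgs1 (chr1:144242296-144249242), a brake on chemokine receptor signalling, fell with myelin in KO (-0.25 ± 0.04) and rose in WT (0.39 ± 0.04), and its interaction was -0.65 ± 0.06 (adjusted p = 8.6e-11).

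Immediate early genes are the first transcribed after a signal. Among 27 tested, 7 had a lower and 1 a higher response in KO (all tested genes: 1.78% and 0.788%). The lower count was 3 without KO myelin replicate 1 and 3 without WT myelin replicate 1. Fos (chr12:85473890-85477273), a subunit of the transcription factor AP-1, had 66, 65.1 and 65.5 CPM in KO myelin and 60.2, 60.2 and 61.8 CPM in KO DMSO libraries, against 97.9, 104 and 100.2 CPM in WT myelin and 67.6, 68.5 and 68.9 CPM in WT DMSO libraries. The WT myelin libraries stood above the other 9, and each KO DMSO library stood below each WT DMSO library. The response was 0.11 ± 0.05 in KO and 0.56 ± 0.05 in WT, and the interaction was -0.45 ± 0.07 (adjusted p = 3.8e-06). Dusp1, a phosphatase that switches off MAP kinases, had a response of -0.61 ± 0.07 in KO and -0.08 ± 0.07 in WT (interaction -0.53 ± 0.10, adjusted p = 1.8e-04). Klf2, a factor that restrains myeloid activation, was the member with a higher response in KO, 0.40 ± 0.07 against -0.04 ± 0.07 in WT (interaction 0.44 ± 0.10, adjusted p = 0.0039).

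Promoter windows of 6 genes with a lower response in KO are shown because they hold the motif TGANTCA, where N is any base. It was searched as a permissive form of the AP-1 site of Fos and Jun. This motif was chosen after matches to 6 motifs had been counted. Each is the RefSeq window (GRCm38.p6) of 250 bases before and 50 after a transcription start, written 5' to 3' on the gene's strand with the motif in capitals.
Il1a, chr2:129309923-129310222, minus strand: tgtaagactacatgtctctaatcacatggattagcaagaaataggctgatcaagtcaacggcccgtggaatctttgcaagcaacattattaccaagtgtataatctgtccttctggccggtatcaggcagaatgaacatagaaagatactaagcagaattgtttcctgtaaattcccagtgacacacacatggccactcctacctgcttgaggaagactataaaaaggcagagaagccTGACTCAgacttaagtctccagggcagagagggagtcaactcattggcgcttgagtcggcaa
Nfkbie, chr17:45555450-45555749, plus strand: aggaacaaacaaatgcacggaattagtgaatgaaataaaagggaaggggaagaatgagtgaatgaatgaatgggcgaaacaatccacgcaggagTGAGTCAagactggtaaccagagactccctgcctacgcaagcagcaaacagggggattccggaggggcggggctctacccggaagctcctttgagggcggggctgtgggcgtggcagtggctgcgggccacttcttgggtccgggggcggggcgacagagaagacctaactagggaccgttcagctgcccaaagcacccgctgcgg
Slamf7, chr1:171648950-171649249, minus strand: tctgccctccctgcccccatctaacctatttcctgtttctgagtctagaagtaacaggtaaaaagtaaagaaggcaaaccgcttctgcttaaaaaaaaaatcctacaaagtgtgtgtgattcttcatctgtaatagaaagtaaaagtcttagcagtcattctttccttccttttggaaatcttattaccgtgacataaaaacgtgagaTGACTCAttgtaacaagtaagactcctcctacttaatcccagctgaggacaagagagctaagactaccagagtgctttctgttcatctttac
Cst7, chr2:150570165-150570464, plus strand: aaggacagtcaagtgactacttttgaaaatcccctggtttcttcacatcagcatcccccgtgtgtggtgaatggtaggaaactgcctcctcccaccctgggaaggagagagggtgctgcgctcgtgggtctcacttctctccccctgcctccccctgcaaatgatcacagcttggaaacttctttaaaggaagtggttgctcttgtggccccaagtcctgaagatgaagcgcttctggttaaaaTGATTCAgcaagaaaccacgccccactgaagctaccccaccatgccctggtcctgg
Gpnmb, chr6:49036268-49036567, plus strand: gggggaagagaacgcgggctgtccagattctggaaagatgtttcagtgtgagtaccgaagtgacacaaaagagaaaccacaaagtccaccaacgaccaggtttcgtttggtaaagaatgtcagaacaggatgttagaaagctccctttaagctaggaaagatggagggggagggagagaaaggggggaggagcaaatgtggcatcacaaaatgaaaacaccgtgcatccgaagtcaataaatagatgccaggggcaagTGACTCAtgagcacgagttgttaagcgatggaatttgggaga
Cd68, chr11:69666121-69666420, minus strand: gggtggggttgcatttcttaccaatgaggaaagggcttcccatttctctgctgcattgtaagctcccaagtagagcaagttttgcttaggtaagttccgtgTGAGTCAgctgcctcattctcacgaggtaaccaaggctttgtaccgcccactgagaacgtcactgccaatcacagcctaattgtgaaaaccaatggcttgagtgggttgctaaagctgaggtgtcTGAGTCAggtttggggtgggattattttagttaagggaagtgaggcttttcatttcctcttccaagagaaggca
The motif was searched on both strands, which read the same letters, and Cd68 held it at 2 places. In Cst7 the match reads TGATTCA, and in the other windows shown TGACTCA or TGAGTCA. The counts below hold matches with any middle base. Of the 10343 tested genes with a window, 511 (4.94%) held it. It was in 27 of 199 windows of genes called lower (13.6%) and in 3 of 83 windows of genes called higher (3.61%). Windows were at hand for 282 of the 371 called genes (76%), under the 80% needed, so these shares are void as a comparison and no test was made. The other 5 motifs counted were kappa-B, the interferon-stimulated response element, the cyclic AMP response element (TGACGTCA), E2F (TTTCCCGC) and the E-box of MITF and TFEB (TCACGTGA). They were in 1.01% to 4.02% of the windows of genes called lower, against 1.53% to 3.26% of all 10343 windows. A match is not evidence of binding.

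Of 34 tested genes of the disease-associated microglial state, 10 had a lower response in KO and 1 a higher one (all tested genes: 1.78% and 0.788%). The median interaction was -0.10. Cst7 (chr2:150570415-150578944), a cathepsin inhibitor, had 50.1, 51.6 and 52.5 CPM in KO myelin and 31.6, 32.3 and 32 CPM in KO DMSO libraries, against 79.8, 71.1 and 71.6 CPM in WT myelin and 29.6, 33.9 and 33.1 CPM in WT DMSO libraries. The DMSO groups overlapped and the myelin groups did not. The interaction was -0.52 ± 0.09 (adjusted p = 7.5e-05). Clec7a, the beta-glucan receptor Dectin-1, had 1798, 1837 and 1943 CPM in KO myelin and 2043, 2181 and 2129 CPM in KO DMSO libraries, against 2518, 2381 and 2508 CPM in WT myelin and 2151, 2142 and 2144 CPM in WT DMSO libraries. It fell with myelin in KO and rose in WT, and the interaction was -0.39 ± 0.04 (adjusted p = 1.2e-10). Gpnmb averaged 24894 ± 366 CPM in KO myelin and 18654 ± 278 CPM in KO DMSO, against 19920.3 ± 280 CPM in WT myelin and 11792 ± 296 CPM in WT DMSO (SD, n = 3 each). It was thus higher in KO than in WT under both treatments, and its response was smaller in KO (0.42 ± 0.03, against 0.76 ± 0.03 in WT). Lyz2, lysozyme, was the member with a higher response in KO, at 0.18, and this call was lost without KO myelin replicate 2 (0.18) or 3 (0.17), KO DMSO replicate 1 (0.21) or 3 (0.18), WT myelin replicate 1 (0.18) or 2 (0.22), or WT DMSO replicate 1 (0.18) or 3 (0.17), with adjusted p between 0.051 and 0.093.

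Apoe and Trem2, the best known members of that state, did not show a called difference. Apoe, the lipid carrier, had a response of -0.24 ± 0.02 in KO and -0.21 ± 0.02 in WT, and an interaction of -0.03 ± 0.03 (adjusted p = 0.84) whose sign depended on the scaling. Trem2, the lipid-sensing receptor, had an interaction of -0.07 ± 0.04 (adjusted p = 0.45).

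Of 48 tested lysosomal genes, 13 had a lower response in KO and none a higher one (all tested genes: 1.78% and 0.788%). The median interaction was -0.11. Cd68 (chr11:69664213-69666153), a lysosomal membrane glycoprotein of macrophages, averaged 1754 ± 30.8 CPM in KO myelin and 1314 ± 25.1 CPM in KO DMSO, against 1512 ± 24.8 CPM in WT myelin and 968 ± 28.1 CPM in WT DMSO (SD, n = 3 each). It stood higher in KO under both treatments, with an interaction of -0.23 ± 0.04 (adjusted p = 7.5e-05). The called interactions of the list lay between -0.34, for Gpnmb, and -0.12. The count was 8 with upper-quartile factors or library totals, and it was 5 without KO DMSO replicate 3, 4 without WT myelin replicate 1, 6 without KO DMSO replicate 2 and 8 without WT myelin replicate 3. It was 7 without KO myelin replicate 1 or 3, KO DMSO replicate 1, or WT DMSO replicate 1 or 3.

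Receptors of debris uptake went both ways, 4 higher and 5 lower in KO among 35 tested (all tested genes: 0.788% and 1.78%). Fcgr2b (chr1:170958617-170976547), the inhibitory receptor for IgG, had 215, 225 and 221 CPM in KO myelin and 446, 462 and 462 CPM in KO DMSO libraries, against 267, 262 and 271 CPM in WT myelin and 378, 401 and 372 CPM in WT DMSO libraries. No groups overlapped, and the fall with myelin was larger in KO (-1.05 ± 0.03, against -0.53 ± 0.03 in WT). The interaction was -0.53 ± 0.05 and had the smallest adjusted p of the genes named here, 1.7e-11. Itgb2, the common chain of the leukocyte integrins, rose in WT alone (0.21 ± 0.03, against 0.01 ± 0.03 in KO), with an interaction of -0.20 ± 0.04 (adjusted p = 2.4e-04). Itgam, its partner chain in complement receptor 3, went the other way at 0.15 ± 0.04 (adjusted p = 0.036). The higher count of this list was 2 without KO myelin replicate 2, 1 without WT myelin replicate 3 and 0 without WT DMSO replicate 1 or 2, and Itgam lost its call without KO myelin replicate 3 (0.11), WT myelin replicate 3 (0.15) or WT DMSO replicate 1 (0.15) or 2 (0.12).

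The 3 chains of complement C1q, which tags debris and synapses for removal, moved together. C1qa (chr4:136895917-136898803) averaged 1124 ± 8.75 CPM in KO myelin and 1171 ± 32.3 CPM in KO DMSO, against 1142 ± 29.7 CPM in WT myelin and 1391 ± 56.7 CPM in WT DMSO (SD, n = 3 each). The WT DMSO libraries stood above all the others. C1qc had 969, 972 and 959.8 CPM in KO myelin and 1119, 1172 and 1188 CPM in KO DMSO libraries, against 916, 928 and 881 CPM in WT myelin and 1292, 1385 and 1270.2 CPM in WT DMSO libraries. The fall with myelin was thus smaller in KO for C1qc (-0.26 ± 0.03, against -0.53 ± 0.03 in WT) and was called in WT alone for C1qa (-0.28 ± 0.03, against -0.06 ± 0.03 in KO) and C1qb (-0.24 ± 0.03, against -0.03 ± 0.03 in KO). The interactions were 0.22 ± 0.04, 0.21 ± 0.04 and 0.27 ± 0.04 for C1qa, C1qb and C1qc (adjusted p = 1.4e-04, 8.6e-04 and 4.9e-06). Among the 19 complement genes tested, 4 were higher and 3 lower in KO (all tested genes: 0.788% and 1.78%). The lower count was 1 without KO DMSO replicate 3.

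Of 21 tested genes of class I antigen presentation 3 had a lower response in KO and none a higher one (all tested genes: 1.78% and 0.788%). The median interaction was -0.26, and it was -0.11 without KO DMSO replicate 3. H2-K1 averaged 904 ± 18 CPM in KO myelin and 774 ± 77.7 CPM in KO DMSO, against 1132 ± 44.9 CPM in WT myelin and 713 ± 19.9 CPM in WT DMSO (SD, n = 3 each). KO DMSO replicate 3, at 863 CPM, stood above replicates 1 and 2 of its group, at 720.3 and 738 CPM. The interaction of H2-K1 was -0.44 ± 0.07 (adjusted p = 0.0019) and that of H2-D1 -0.36 ± 0.07 (adjusted p = 0.0042). Without KO DMSO replicate 3 they were -0.33 and -0.30, and both were still called. The third called member, H2-Q6, had -1.02 ± 0.28 (adjusted p = 0.043), with no call without KO myelin replicate 2 (-0.96) or 3 (-0.96), KO DMSO replicate 3 (-0.72), WT myelin replicate 1 (-0.89) or 3 (-1.02), or WT DMSO replicate 1 (-0.95) or 2 (-0.94). These genes have close copies, and tags shared between them could be split by the counting. Cd274, the checkpoint ligand PD-L1, rose by 0.45 ± 0.04 in KO and by 0.94 ± 0.04 in WT (interaction -0.49 ± 0.06, adjusted p = 1.5e-07).

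Genes of the sterol synthesis list had a median myelin response of -2.22 in KO and -2.10 in WT. A lower response in KO was called for 6 of 26 tested members and a higher one for none (all tested genes: 1.78% and 0.788%). The count of lower responses was 3 without KO myelin replicate 1. The 6 called interactions lay between -0.64 and -0.31. On the efflux side, Abca1, the cholesterol exporter induced by LXR, rose by 2.56 ± 0.09 in KO and 2.28 ± 0.09 in WT, and the difference of 0.27 ± 0.12 was not called (adjusted p = 0.34). Npc2, which carries cholesterol out of lysosomes, was the called gene among 25 of the LXR list, at -0.36 ± 0.09 (all tested genes: 1.78% lower). It had no call without KO myelin replicate 1 (-0.34), 2 (-0.37) or 3 (-0.35) or WT myelin replicate 1 (-0.30) or 3 (-0.35). Nor was it called without WT DMSO replicate 1 (-0.35) or 3 (-0.35).

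Hilpda, which blocks lipolysis at lipid droplets, was induced by myelin in both genotypes but by less in KO. It had 114, 107 and 105 CPM in KO myelin and 41.8, 39 and 38.5 CPM in KO DMSO libraries, against 135, 132 and 132 CPM in WT myelin and 32.4, 36.6 and 32.8 CPM in WT DMSO libraries. KO libraries stood lower than WT in myelin and higher in DMSO, without overlap. The interaction was -0.52 ± 0.08 (adjusted p = 8.1e-06).

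Of 31 tested NRF2 and oxidative defence genes, 7 were lower and 1 higher in KO (all tested genes: 1.78% and 0.788%). The lower count was 3 without KO DMSO replicate 1 and 4 without KO DMSO replicate 2 or WT myelin replicate 1, and the higher count was 0 without KO myelin replicate 2, KO DMSO replicate 2, WT myelin replicate 3 or WT DMSO replicate 3. Slc7a11, the cystine importer that feeds glutathione synthesis, fell in KO (-0.23 ± 0.06) and rose in WT (0.32 ± 0.06), with an interaction of -0.54 ± 0.09 (adjusted p = 0.0013). Of 27 matrix remodelling genes 4 were lower and none higher (all tested genes: 1.78% and 0.788%). Mmp12, the macrophage elastase, averaged 12320.1 ± 579 CPM in KO myelin and 13849 ± 208 CPM in KO DMSO, against 13033 ± 347 CPM in WT myelin and 10296 ± 53.1 CPM in WT DMSO (SD, n = 3 each). It fell in KO and rose in WT, and the interaction was -0.51 ± 0.06 (adjusted p = 2.4e-05). Arg1, arginase 1, had 289, 302 and 285 CPM in KO myelin and 435, 477 and 444 CPM in KO DMSO libraries, against 428, 419 and 414 CPM in WT myelin and 463, 497 and 445 CPM in WT DMSO libraries. KO myelin stood below the other groups, and the interaction was -0.47 ± 0.05 (adjusted p = 1.4e-10).

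**Figure D3:**
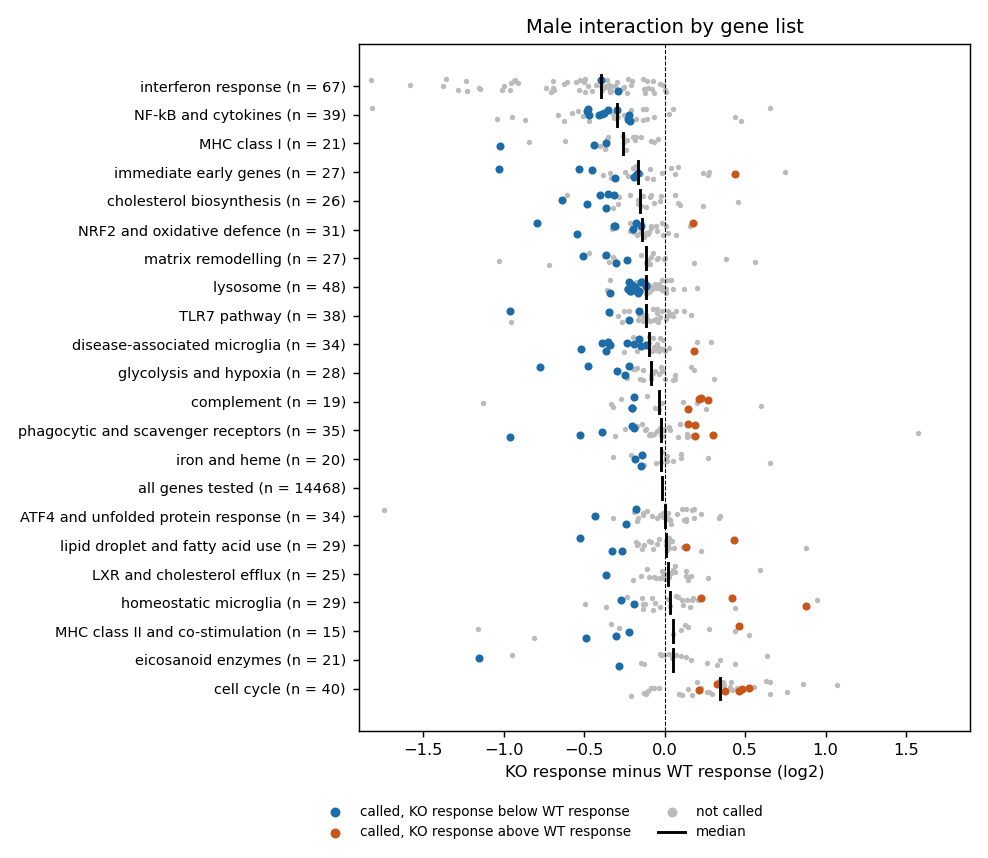
Male interaction (KO response minus WT response, log2) of the tested members of 21 gene lists. Points are genes, coloured where called; black bars are list medians, the bar for all 14468 genes is the background, and 5 values beyond the axis are not drawn. The cytokine, lysosome and sterol lists hold called genes to the left of 0 only, and the cell cycle list to the right only.

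Of 40 tested cell cycle genes 6 had a higher response in KO and none a lower one (all tested genes: 0.788% and 1.78%). The median response of the list was -0.58 in KO and -1.03 in WT. The count was 3 without KO myelin replicate 2, 2 without WT myelin replicate 3 and 10 without WT myelin replicate 2. Outside that list, Uhrf1 (chr17:56303321-56323486), which maintains DNA methylation during replication, had 8.88, 7.67 and 8.89 CPM in KO myelin and 12.4, 10.5 and 12.5 CPM in KO DMSO libraries, against 8.45, 8.5 and 6.15 CPM in WT myelin and 19.7, 20.3 and 19.9 CPM in WT DMSO libraries. The WT DMSO libraries stood above all the others, and the myelin groups overlapped. The interaction was 0.90 ± 0.18 (adjusted p = 6.7e-04). Mcm5, a subunit of the replicative helicase, had a response of -0.52 ± 0.08 in KO and -1.0 ± 0.08 in WT (interaction 0.48 ± 0.12, adjusted p = 0.0099). Racgap1, needed for cytokinesis and also outside the list, had an interaction of 0.70 ± 0.14 (adjusted p = 0.0010), and Stmn1, a microtubule regulator, had 0.54 ± 0.13 (adjusted p = 0.0075). Mki67, the proliferation marker of the list, had 0.52 ± 0.14 (adjusted p = 0.027), with no call without KO myelin replicate 2 (0.49), KO DMSO replicate 1 (0.51), WT myelin replicate 3 (0.40) or WT DMSO replicate 1 (0.48).

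Cotl1 (chr8:119809222-119840544), an actin-binding protein, had 1564, 1567 and 1588 CPM in KO myelin and 1146, 1096 and 1095 CPM in KO DMSO libraries, against 1309, 1334 and 1307 CPM in WT myelin and 1213, 1215 and 1167 CPM in WT DMSO libraries. KO stood above WT in myelin and below WT in DMSO, without overlap. The interaction was 0.36 ± 0.04 (adjusted p = 8.6e-11). Actb, beta-actin, rose in KO alone (0.34 ± 0.02, against 0.05 ± 0.02 in WT; interaction 0.29 ± 0.03, adjusted p = 1.8e-08). Tmsb4x, the actin-sequestering thymosin beta 4, fell by less in KO (-0.17 ± 0.03, against -0.53 ± 0.03 in WT), at 0.36 ± 0.04 (adjusted p = 9.4e-10). It was the only called gene of 36 tested within 5 Mb of Tlr7, where 2.56% of all tested genes were called. Actb and Tmsb4x have close copies elsewhere in the genome whose tags may be shared.

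Of 29 homeostatic microglia genes 3 were called higher and 2 lower (all tested genes: 0.788% and 1.78%), with a median interaction of 0.03. The higher count was 1 without KO myelin replicate 2, and the lower count was 1 without KO myelin replicate 1 or 2, KO DMSO replicate 1 or 2, WT myelin replicate 1 or 2, or WT DMSO replicate 1 or 3. Fcrls, a microglial identity gene of that list, fell by less in KO (-0.59 ± 0.06, against -1.01 ± 0.06 in WT; interaction 0.42 ± 0.08, adjusted p = 0.0018), and Selenop, a selenium carrier, had a response of -0.08 ± 0.04 in KO and -0.45 ± 0.04 in WT (interaction 0.37 ± 0.05, adjusted p = 7.0e-06). Cx3cr1, the fractalkine receptor, fell steeply with myelin in both genotypes: it averaged 1.62 ± 0.562 CPM in KO myelin and 74.3 ± 7.76 CPM in KO DMSO, against 1.41 ± 0.438 CPM in WT myelin and 121 ± 6.03 CPM in WT DMSO (SD, n = 3 each). Its interaction of 0.94 ± 0.37 was not called (adjusted p = 0.24), but it was called with DESeq2 (0.96, adjusted p = 0.0047) and without a filter on low counts (0.97, adjusted p = 0.0080). The interaction of Sarnp, an RNA export factor, was 1.44 ± 0.32 (adjusted p = 0.016). It had 8.95, 10.6 and 13.7 CPM in KO myelin and 5.57, 5.58 and 7.04 CPM in KO DMSO libraries, against 5.52, 5.88 and 5.96 CPM in WT myelin and 9, 6.19 and 10.3 CPM in WT DMSO libraries. The KO myelin libraries stood above the KO DMSO libraries, and the WT DMSO libraries stood above the WT myelin libraries.

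Type I interferon-stimulated genes, which IRF7 drives, had a median interaction that turned with 1 library. Of 67 tested members 2 were called lower (all tested genes: 1.78%), Irf1 and Trim25, with adjusted p = 0.047 and 0.027. The count was 0 without KO myelin replicate 2, KO DMSO replicate 3, WT myelin replicate 1 or 3, or WT DMSO replicate 1 or 3, and 1 without KO myelin replicate 1 or 3, KO DMSO replicate 1 or WT myelin replicate 2. The median interaction was -0.39, from a median response of 0.28 in KO and 0.79 in WT, and 65 of 67 were negative. Irf7 had 52.2, 48.3 and 42.4 CPM in KO myelin and 14.9, 16.9 and 60.1 CPM in KO DMSO libraries, against 217, 166 and 188 CPM in WT myelin and 64.1, 76.2 and 48.2 CPM in WT DMSO libraries. KO DMSO replicate 3 thus stood with the WT DMSO libraries and above all KO myelin libraries. It was the highest of the 3 KO DMSO libraries for 66 of the 67 genes, whose summed level there was 4127 CPM against 2221 and 2359 CPM in replicates 1 and 2. Summed levels were 3795 to 4285 CPM in KO myelin, 7034 to 7966 CPM in WT myelin and 3785 to 4858 CPM in WT DMSO libraries.

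Without KO DMSO replicate 3 the median interaction of the interferon list was 0.07, and none of its members was called. The interaction of Irf7 was then -0.00 and those of Ifit3, Isg15 and Cxcl10 were 0.01, 0.27 and 0.14, in place of -0.96 ± 0.52, -1.24 ± 0.75, -0.91 ± 0.62 and -0.96 ± 0.68 with all libraries. Each of these 4 genes was lower in every KO myelin library than in any WT myelin library, which is a difference between genotypes and not one between responses. In female libraries the median of the list was 0.46 and no member was called.

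**Figure D4:**
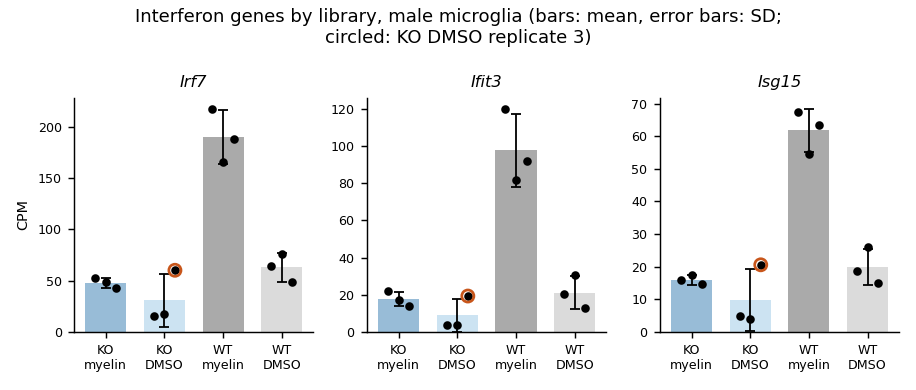
CPM of 3 interferon-stimulated genes in the 3 libraries of KO myelin, KO DMSO, WT myelin and WT DMSO male microglia. Bars are means, error bars are SD; the circled point is KO DMSO replicate 3, at 60.1 CPM for Irf7 where the other KO DMSO libraries had 14.9 and 16.9 CPM.

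The same interaction in female libraries, which share none with the male ones, called 133 genes (0.919%), 65 higher (0.449%) and 68 lower (0.470%). That count was 73 without female WT myelin replicate 1, 84 without female WT myelin replicate 3 and 75 without female WT DMSO replicate 1, and 41 with the Ttr and Pdgfra covariates. Of the 371 genes called in males, 317 (85.4%) had the same sign in females, against 56.3% of all tested genes. Of those, 57 were also called in females in the same direction, which is 15.4% of the 371 and 42.9% of the female calls, and none was called in the opposite direction. The interaction was larger in size in males for 349 of the 371, as follows from choosing them there. Nfkbie had the same value in both sexes, -0.76 ± 0.15 in each. Gpr137b, a lysosomal regulator of mTORC1, had -0.41 ± 0.04 in males and -0.31 ± 0.04 in females, Cd14 -0.96 ± 0.07 and -0.47 ± 0.07, and Cotl1 0.36 ± 0.04 and 0.31 ± 0.04, all called in both. Pla2g7, a phospholipase that clears platelet-activating factor, had -0.28 ± 0.06 in males and -0.37 ± 0.06 in females.

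The difference between the sexes was itself called for 11 genes (0.0760%), 1 higher (0.00691%) and 10 lower (0.0691%) in males, and the 10 lower ones were among the 371. The count was 7 without male KO myelin replicate 3, male KO DMSO replicate 2, male WT myelin replicate 1 or 3, male WT DMSO replicate 1 or 3, female KO DMSO replicate 3 or female WT DMSO replicate 2, and 6 without female KO myelin replicate 2. For 4 of these 10, Gprc5b, Fcgr2b, Cd274 and Clec7a, the female interactions were -0.24 ± 0.09, -0.12 ± 0.05, -0.10 ± 0.06 and -0.07 ± 0.04. Fos, Vegfa and Slamf7 had female interactions of -0.05, -0.15 and -0.05 that were not called, but their difference between the sexes was not called either. Of the 39 cytokine and NF-kB genes 5 were called lower in females (all tested genes: 0.470%). A difference between the sexes was called for 1 of the 39 (all tested genes: 0.0760%), the chemokine gene Ccl3, named after its value was seen. Its interaction was -0.29 in males and 0.05 in females, where it was not called. No difference between the sexes was called among the 48 lysosomal genes.

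**Figure D5:**
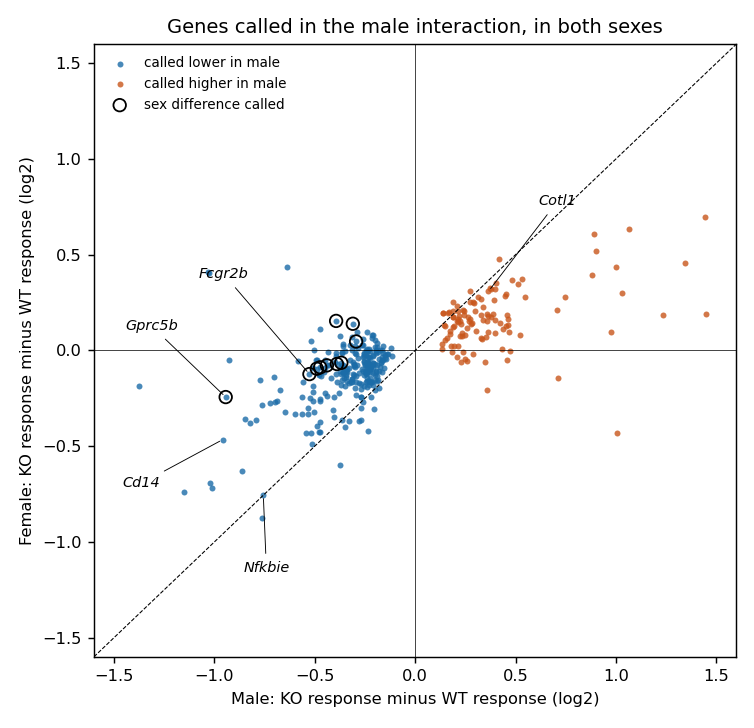
Interaction in males (horizontal) against females (vertical), in log2, for 365 of the 371 genes called in males; 6 lie beyond the axes. Circles mark genes whose difference between the sexes was called, and the dashed line marks equal values; most points lie on the same side of 0 in both sexes and nearer to 0 in females.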

How the data were processed

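Libraries were made with the QuantSeq 3' mRNA-Seq FWD kit from RNA extracted with Quick-RNA MicroPrep, per the labels' protocols, and the labels give the molecule as nuclear RNA. The deposited table holds raw counts per gene, and the authors' tools included DESeq2 1.38.3 with builds GRCm38 and mm10, per the submitters' processing notes. Neither aligner nor counter is named there (not given in the sources used here). From these counts, 24 microglia libraries were fitted together as 8 groups with edgeR 4.0.16 in R 4.3.3 (filterByExpr, TMM, robust quasi-likelihood test), leaving 14468 of 54532 genes. CPM and figures were made with pandas 2.3.3 and matplotlib 3.10.9. The fit was also run on simulated counts drawn independently for each library around its group mean. They hold no shift of a single library, such as that of KO DMSO replicate 3, so the run cannot speak to such shifts. Hippocampal libraries were not used here.

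Members and gene lists were chosen with earlier results of these data known. Named genes were 12 listed whatever they show, and, among the called genes that were separated and reached 10 CPM in a group, the 15 of largest interaction and the 8 of smallest adjusted p in each direction, up to 3 called members per list and direction, and called genes within 5 Mb of Tlr7. Genes outside this rule are marked in the text. Alternatives were other scalings, filters, DESeq2 1.42.0, limma 3.58.1 (voom), male or female libraries alone, a replicate block, covariates, and leaving out each library.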

Additional observations from a re-analysis of the deposited data

Results flagged for a closer look

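For 4 genes the male interaction was lower than the female interaction by the test of that difference in the model of all microglia libraries (edgeR's quasi-likelihood test, adjusted over all genes). Male minus female, it was -0.70 for Gprc5b (adjusted p = 0.0040), from -0.94 in males and -0.24 in females. For Fcgr2b it was -0.40 (adjusted p = 0.0019), for Cd274 -0.39 (adjusted p = 0.032) and for Clec7a -0.32 (adjusted p = 0.0019).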

How the results depend on the processing

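The male interaction count of 371 ranged from 353 to 476 over 10 other settings and from 270 to 347 with 1 male library left out. The genes changed more than the counts. Of the 371, 312 (no filter on low counts) to 363 (male libraries alone) were called again in the other settings. With 1 male library left out, 238 (KO DMSO replicate 3) to 299 (WT myelin replicate 2) were called again. Of the 102 named genes called, all kept their direction in each of these fits and 60 were called in each that gave an adjusted p. The female count of 133 was 41 with Ttr and Pdgfra as covariates, and 73 to 156 with 1 library left out. The 11 sex differences became 7 with RLE factors, 6 with upper-quartile factors, 40 without a filter, 7 with a stricter filter, 37 with DESeq2, 17 with the covariates, and 6 to 14 with 1 library left out; causes were not tested. The uncalled Apoe interaction was 0.0058, 0.0050 and 0.0039 with upper-quartile factors, library totals and no filter, and -0.046 to 0.037 with 1 library left out. Without male KO DMSO replicate 3, Ifit3 was 0.011, Isg15 0.27 and Cxcl10 0.14, the highest values with 1 library left out, the lowest being -1.597, -1.28 and -1.42. With the replicate number as a block, 476 male interactions, 198 female interactions and 45 sex differences were called. The labels do not say that numbers pair libraries. Pairing was looked at in residuals, the log2 CPM of each gene minus its group mean, and not in whole expression profiles. Residuals of same-numbered myelin and DMSO libraries correlated by -0.059 to 0.047 in the 6 male pairs. There 2 of 6 correlated best with their own number. In female KO the residual correlations were 0.43, 0.20 and 0.10. Over all 12 pairs 3 passed 0.1, so not every pair did. Low counts can limit precision, and Cx3cr1 had few CPM in its myelin groups, though not in DMSO. The part of low counts in the spread of Cxcl10 and Cx3cr1 was not tested.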
